A study of Mus musculus with 58 samples.

Results

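A set of 10 genes of steroid metabolism, headed by Sult1e1 and Akr1c14, was followed in adipose stem cells (ASC) of mice whose gonads had been removed or left in place. The members were fixed by name as Sult1e1, Akr1c14, Akr1c18, Hsd11b1, Hsd17b4, Hsd17b12, Srd5a1, Srd5a3, Cyp1b1 and Cyp19a1, and their rows were found in the deposited table by Ensembl identifier, 10 of 56953 genes. They held 36218 of 39991687 reads, and 9 of the 10 passed the filter on low counts. RNA had been measured by Smart-seq3, which copies whole transcripts into cDNA, in ASC sorted from inguinal white adipose tissue (iWAT) of C57BL/6J mice as CD45-/CD31-/CD34+ cells. DPP4- cells were taken as ASC1 and DPP4+ cells as ASC2. Castrated males and ovariectomized females had been operated on at 4 weeks of age and were, like the age-matched control males and females, killed at 10 weeks after a short fast. The sources used here mention neither a sham operation of the controls nor a transgene. There were 58 libraries, 8 in each group except for ASC1 of control males (7) and of ovariectomized females (3). The comparisons ask how each gene responds to removal of the gonads in either sex, how control males differ from control females, and how ASC2 differ from ASC1.

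Steroid hormones are switched on and off within tissues by enzymes that add or remove small groups. Sulfotransferases attach sulfate and so take estrogens out of reach of their receptor. Aldo-keto reductases of the Akr1c family and the 17-beta-hydroxysteroid dehydrogenases interconvert keto and hydroxy steroids, 5-alpha-reductases saturate the ring of testosterone and of other steroids, 11-beta-hydroxysteroid dehydrogenase 1 regenerates active glucocorticoid, and cytochromes P450 form or hydroxylate estrogens. In fat, stromal cells are a known site of several of these steps.

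Promoter sequences are given for the 3 members whose levels differed most between the groups, to show which hormone response letters lie next to their start sites. They are the 250 bases before the start in RefSeq (GRCm38.p6), read on the strand of the gene. A promoter was matched for 9 of the 10 members. Sult1e1 lies at chr5:87591612-87591861 on the minus strand, Akr1c14 at chr13:4059341-4059590 on the plus strand and Akr1c18 at chr13:4150647-4150896 on the minus strand. Capitals mark matches on either strand to TGTTCT (one arm of the element bound by glucocorticoid and related steroid receptors), GGTCA (one arm of the estrogen response element) and the letters TATAAA of a core promoter box, or to the full elements with both arms.
Sult1e1: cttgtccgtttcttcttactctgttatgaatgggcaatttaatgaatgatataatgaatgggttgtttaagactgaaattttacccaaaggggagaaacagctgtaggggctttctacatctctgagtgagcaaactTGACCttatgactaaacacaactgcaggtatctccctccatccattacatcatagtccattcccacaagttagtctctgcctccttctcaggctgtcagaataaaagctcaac
Akr1c14: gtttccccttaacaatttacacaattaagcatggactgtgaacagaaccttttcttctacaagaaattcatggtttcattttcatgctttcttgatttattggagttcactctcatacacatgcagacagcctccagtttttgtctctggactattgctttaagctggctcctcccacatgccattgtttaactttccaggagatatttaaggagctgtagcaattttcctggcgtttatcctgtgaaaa
Akr1c18: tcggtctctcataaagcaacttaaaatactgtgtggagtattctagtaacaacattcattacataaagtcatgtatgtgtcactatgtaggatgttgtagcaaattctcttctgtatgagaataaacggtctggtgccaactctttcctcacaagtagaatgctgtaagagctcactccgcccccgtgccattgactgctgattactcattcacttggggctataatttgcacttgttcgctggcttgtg
One match was found among the 3 promoters. GGTCA occurs in that of Sult1e1 on the other strand (TGACC as printed), 113 bases before the start. It was present in 35.2% of 32851 promoters of the same length. TGTTCT was in 16.1% and TATAAA in 12.4% of them. The full elements were rare, with AGAACA and TGTTCT set 3 bases apart in 0.00913% and GGTCA and TGACC set 3 bases apart in 0.0639%. CCAAT was found in Akr1c14 on the other strand 152 bases before the start, and in 33.8% of all promoters. GGGCGG was found in Akr1c18 on the other strand 73 bases before the start, and in 32.7% of all. These matches describe the windows and were not related to any measurement.

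Several libraries stood apart before any member was considered. Total counts were between 106562 and 1421518 per library, with a median of 682400. In 27 of 58 libraries Xist or the Y-linked transcripts went against the sex of the label. They were all 8 castrated ASC1 libraries, 4 of 7 ASC1 and 4 of 8 ASC2 libraries of control males, and 5 of 8 ASC1 and 6 of 8 ASC2 libraries of control females. No library of castrated ASC2 or of ovariectomized females was among them. The castrated ASC1 libraries had Xist at 51.9 to 118 CPM and Y-linked genes at 0 to 4.72 CPM. The 5 of control female ASC1 had Xist at 2.42 to 7.24 CPM and Y-linked genes at 61.6 to 79.8 CPM. The 4 of control male ASC2 held both, with Xist at 50.2 to 73.9 CPM and Y-linked genes at 12.6 to 33.9 CPM. As all 8 castrated ASC1 libraries went against their label, operation and sex of the cells cannot be told apart for that group. Groups are therefore named as the libraries were labelled. In 23 libraries Tcf21, a gene known from visceral fat stroma, was at 8.77 to 79.1 CPM (counts relative to the TMM-scaled library total), against at most 1.58 CPM in the other 35. In the same 23 libraries Wt1, also known from visceral fat, was at 6.56 to 30.1 CPM against at most 1.83 CPM, and Tbx15, known from subcutaneous fat, had a median of 2.99 CPM against 26.4 CPM. These Tcf21 libraries were 6 of 8 control female ASC1, 2 of 8 control female ASC2, 4 of 8 ovariectomized ASC2, 6 of 8 castrated ASC1, 2 of 8 castrated ASC2 and 3 of 7 control male ASC1 libraries. They were defined after the data had been seen, and results are given with and without them and without the libraries that went against their sex label. Fibroblast markers (Pdgfra, Col1a1, Dcn and Lum) summed to 43144 to 45105 CPM in the 3 ovariectomized ASC1 libraries, against 5122 to 9137 CPM in control female ASC1. In the same 3 libraries mural markers summed to 161 to 307 CPM against 706 to 1459 CPM, and 7 mammary epithelium markers were at 0. In ovariectomized ASC2 mural markers had a median sum of 1841 CPM (815 to 2047) against 409 CPM (173 to 1398) in control female ASC2. Mammary epithelium markers had a median sum of 260 CPM (9.88 to 1122) against 22.5 CPM (7.64 to 53.8) in these groups. Dpp4 itself was at 49.2 to 489 CPM in ASC2 and at 0.87 to 47.3 CPM in ASC1. Since RNA was taken from pools of sorted cells, fewer cells of a type and less RNA per cell cannot be told apart.

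Across the comparisons the members split into genes that changed and genes that did not pass the test. An adjusted p below 0.05 in the quasi-likelihood test of edgeR over all genes tested counted as a change. Castration changed 2 of the 9 tested members in ASC1, where 2.36% of all genes were called, and 2 in ASC2, where 6.96% were called. Ovariectomy changed 1 in ASC1, where 34.8% of all genes were called. In ASC2 edgeR called 0 members after ovariectomy, with 2.09% of all genes called. There 2 members, Akr1c14 and Akr1c18, were among the 1655 of 12464 genes with an unadjusted p below 0.05 in edgeR. DESeq2 called 0 members and limma voom 1. Control males and control females differed in 1 member in ASC1 (0.289% of all genes) and in 3 members in ASC2 (6.5%). Castrated males and control females differed in 2 members in ASC1 (2.07%) and 1 in ASC2 (1.41%), and ovariectomized females and control males in 3 members in ASC1 (35.6%) and 2 in ASC2 (18.3%). ASC2 differed from ASC1 in 4 members in control females (6.11%), 3 in control males (12.2%), 1 in castrated males (9.09%) and 4 in ovariectomized females (35.4%). The median log2 fold change of the 9 members was 0.02 after castration in ASC1 and -0.08 in ASC2, against -0.01 and 0.00 over all genes tested. In ovariectomized ASC1 the median of all genes was -0.34 with the TMM scaling and -0.66 with library size only, and values in that group are relative to this shift. The castration comparison and the comparison of control males with control females share the control male libraries, so their values stand side by side and are not independent. Fewer genes were called without the Tcf21 libraries, 0 for castration in ASC1, 5.06% for castration in ASC2 and 4.08% for control sex in ASC2. The castration effect differed between ASC2 and ASC1 for 3 members, where 2.41% of all genes were called, and the ovariectomy effect for 1, where 34.8% were. For the control sex effect this count was 0 by edgeR, where 0.128% of all genes were called, and 2 by DESeq2. There 3 members were among the 1370 of 12464 genes with an unadjusted p below 0.05 in edgeR.

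**Figure D1:**
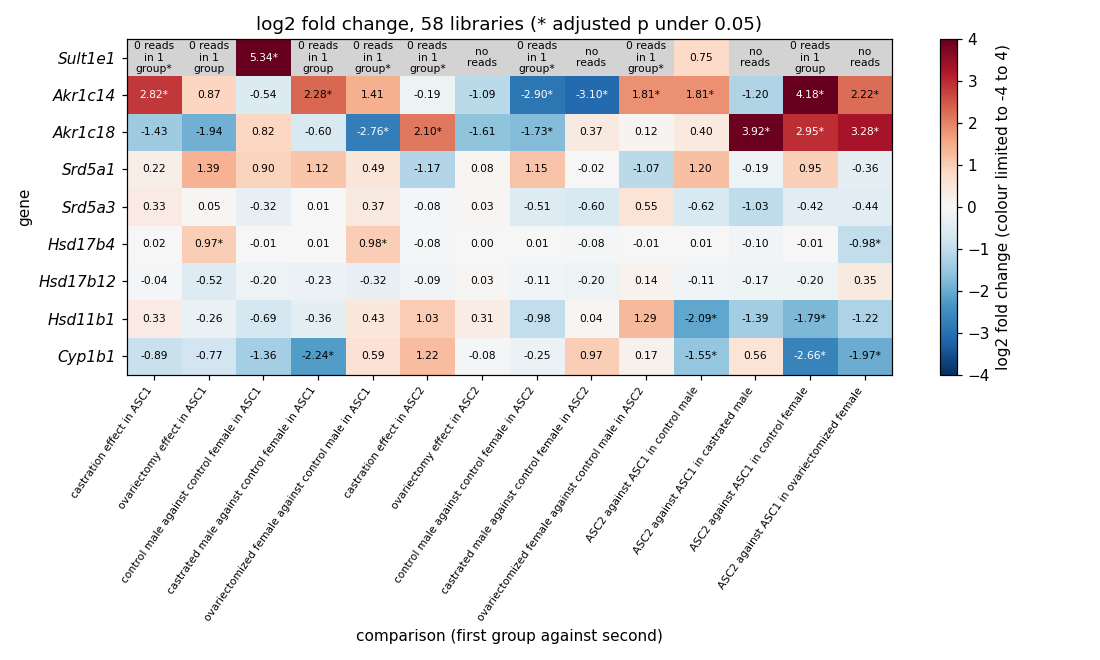
Log2 fold change of 9 members (rows) in 14 comparisons (columns, the first group named against the second), from edgeR on all 58 libraries, with the colour limited to -4 to 4 and a star for an adjusted p under 0.05. Grey cells mark Sult1e1 where a group had no reads, and the rows of Hsd17b4 and Hsd17b12 are pale next to those of Akr1c14 and Akr1c18.

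Sult1e1, the estrogen sulfotransferase, was found in control males and was at or near 0 in every other group. In ASC2 of control males its level was 34.6 CPM in the lowest library, 87.6 CPM in the median and 154 CPM in the highest (84.6 ± 38.7 CPM, SD, n = 8). In ASC1 of control males the lowest library had 22.7 CPM, the median was 35.7 CPM and the highest had 133 CPM (49.8 ± 40.1 CPM, n = 7). No read was counted in any of the 16 castrated male libraries, the 8 ASC2 libraries of control females or the 11 libraries of ovariectomized females. Control female ASC1 held 5 reads in all, in replicates B4 (4.84 CPM) and G4 (3.62 CPM). Both of these libraries carried Y-linked transcripts and Tcf21. The groups of castrated and control males did not overlap in either population, nor did those of control males and control females.

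The limit that a count of 0 allows was taken as 3 counts over a group (counting error only). Against it Sult1e1 was at least 84.4-fold lower in castrated than in control males in ASC1 (adjusted p = 3.09e-07). The bound was 156-fold in ASC2 (adjusted p = 6.19e-09). Sult1e1 was at least 159-fold higher in control males than in control females in ASC2 (adjusted p = 1.02e-08). In ASC1 the control males were higher by 5.34 on the log2 scale (SE 0.63, adjusted p = 7.31e-06). Ovariectomized females were at least 20.8-fold lower than control males in ASC1 (adjusted p = 8.96e-05), with a bound of 151-fold in ASC2 (adjusted p = 6.94e-09). A two-sided exact permutation test of log2(CPM + 1) gave p = 0.000155 for castration and for control sex in each population, the smallest p possible with these numbers of libraries (adjusted p = 0.00162 over 52 tests). Control male libraries that went against their sex label had 22.7 to 68.8 CPM in ASC1 and 34.6 to 84.3 CPM in ASC2, and the remaining control male libraries had 23.5 to 133 CPM and 90.9 to 154 CPM. Castration without the Tcf21 libraries remained past the threshold in ASC2 (adjusted p = 1.61e-07), but not in ASC1 (adjusted p = 0.0931), where 2 castrated and 4 control libraries were left. In ASC1 0 of all genes were then called by edgeR, the single tool run on these libraries, and 284 genes had an unadjusted p below 0.05, Sult1e1 among them. Without the libraries against their sex label, castration in ASC1 had no castrated library left, and in ASC2 Sult1e1 remained past the threshold (adjusted p = 1.47e-06). ASC2 and ASC1 of control males differed by 0.75 on the log2 scale (SE 0.39, adjusted p = 0.218). Without the highest ASC1 library, D2, the difference was 1.27 (adjusted p = 0.0308).

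Akr1c14, which encodes the mouse 3-alpha-hydroxysteroid dehydrogenase, followed another order, with its highest levels in ASC2 of control females. There the lowest library had 62.9 CPM, the median was 105 CPM and the highest had 472 CPM (157 ± 136 CPM, n = 8). Ovariectomized ASC2 followed with 22.3, 60.5 and 163 CPM (69.1 ± 50.2 CPM, n = 8), then castrated ASC1 with 10.8, 46.8 and 65.5 CPM (42.1 ± 22.5 CPM, n = 8). Control male ASC2 had 6.36, 18.6 and 36.2 CPM (20.1 ± 8.8 CPM, n = 8), and castrated ASC2 11.5, 17.6 and 29.1 CPM (18.8 ± 6.0 CPM, n = 8). The 3 ovariectomized ASC1 libraries had 9.14, 22.9 and 24.8 CPM. Levels were lowest in ASC1 of control females, at 2.41, 6.30 and 19.3 CPM (9.18 ± 6.71 CPM, n = 8), and of control males, at 0, 6.98 and 11.4 CPM (5.59 ± 4.23 CPM, n = 7). In this order each group overlapped with the next.

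In ASC2, Akr1c14 was lower in control males than in control females by a log2 fold change of -2.90 (SE 0.40, adjusted p = 2.14e-06), and the 8 male libraries lay below the 8 female ones without overlap. The exact permutation test gave p = 0.000155, the smallest possible. The difference was -2.84 without the Tcf21 libraries (adjusted p = 1.13e-05), -2.87 without the libraries against their sex label (adjusted p = 0.00223, with 2 control female libraries left, both with Tcf21), and -2.45 without the highest library, E3 (adjusted p = 1.45e-05). The 6 control female libraries behind the value of -2.84 all carried Y-linked transcripts, at 36.4 to 65.7 CPM. No control female ASC2 library was therefore free of both Tcf21 and Y-linked transcripts. Castrated ASC2 were also below control female ASC2, by -3.10 (SE 0.41, adjusted p = 1.08e-06), and castrated and control male ASC2 differed by -0.19, with a 95% interval of -1.05 to 0.66 (adjusted p = 0.849). In ASC1 of control males and females the difference was -0.54 (SE 0.60, adjusted p = 0.883).

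In ASC1 Akr1c14 was higher in castrated than in control males, by 2.82 on the log2 scale (SE 0.51, adjusted p = 0.000313). The 6 castrated ASC1 libraries with Tcf21 had 30.0 to 65.5 CPM and the 2 without it 10.8 and 11.5 CPM, and all 8 went against their sex label. The difference was 0.62 without the Tcf21 libraries (SE 0.81, adjusted p = 1). The castration effects, ASC2 minus ASC1, differed by -3.02 (SE 0.67, adjusted p = 0.00523), and this difference was -0.75 and not past the threshold without those libraries. In ovariectomized ASC2 the 4 Tcf21 libraries had 82.5 to 163 CPM and the other 4 had 22.3 to 38.5 CPM. Ovariectomy gave -1.09 in ASC2 with all libraries (SE 0.37, adjusted p = 0.11) and -2.44 without the Tcf21 libraries (SE 0.52, adjusted p = 0.00667). The 6 control female libraries behind the second value all went against their sex label. Without the libraries against their sex label, the difference was -1.32 (SE 0.44, adjusted p = 0.644), with 2 control female libraries left. ASC2 exceeded ASC1 in control females by 4.18 (SE 0.47, adjusted p = 1.14e-09), and by 3.82 without the Tcf21 libraries (adjusted p = 0.00232). In control males ASC2 were higher by 1.81 (adjusted p = 0.0141), and by 1.51 without the Tcf21 libraries (adjusted p = 0.118). In ovariectomized females the difference was 0.81 without the Tcf21 libraries (adjusted p = 0.429). Castrated ASC1 were above control female ASC1 by 2.28 (SE 0.48, adjusted p = 0.00406), and by 0.09 without the Tcf21 libraries. Ovariectomized against control male ASC2 gave 0.40 without the Tcf21 libraries (adjusted p = 0.706). This was 1.55 without the libraries against their sex label (adjusted p = 0.0105). The part of the Tcf21 libraries in these results was not tested beyond leaving them out.

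**Figure D2:**
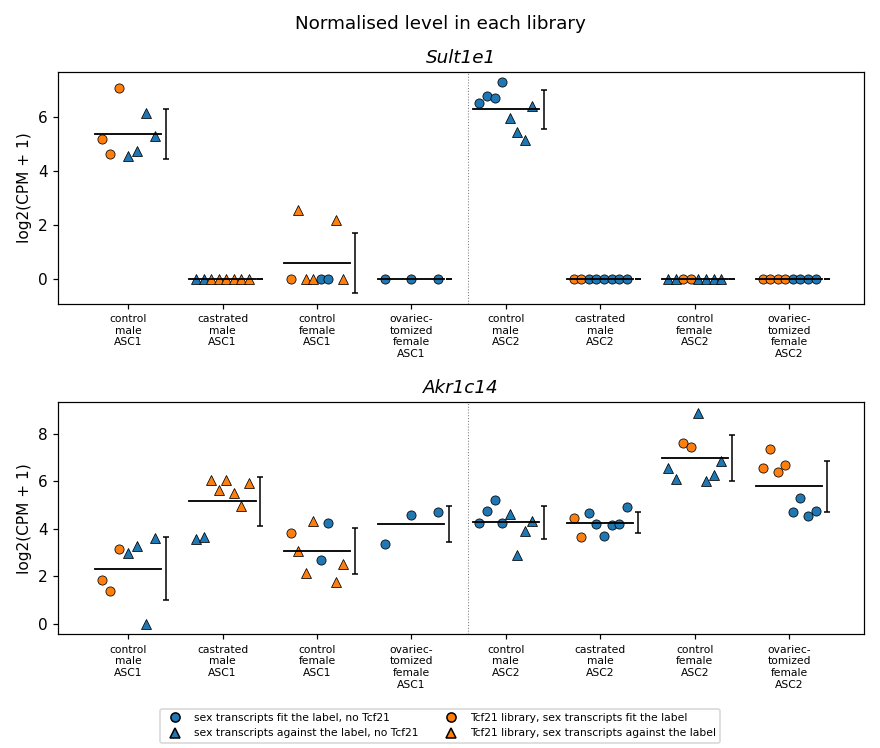
Level of Sult1e1 (upper panel) and Akr1c14 (lower panel) in each library as log2(CPM + 1), by group, with ASC1 left and ASC2 right of the dotted line, the mean as a bar and the SD beside it. Orange points are Tcf21 libraries and triangles are libraries whose sex transcripts went against the label, and all 15 control male libraries, from 22.7 CPM upwards, lie above every other library for Sult1e1.

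Akr1c18, the 20-alpha-hydroxysteroid dehydrogenase that inactivates progesterone, had the highest level per length among the members in ASC2 of both controls. In ASC2 of control males it stood at 184 CPM per kb, followed by Sult1e1 at 68.1, Hsd17b12 at 44.6, Hsd17b4 at 20.9, Cyp1b1 at 9.88, Hsd11b1 at 9.73, Akr1c14 at 6.22, Srd5a1 at 6.09 and Srd5a3 at 1.60 CPM per kb. In ASC2 of control females Akr1c18 stood at 613 CPM per kb, with Akr1c14 at 48.5, Hsd17b12 at 48.0 and Sult1e1 at 0 CPM per kb. Lengths were the merged exons of an older Gencode release on GRCm38. Of the 31-base words of its exons Akr1c18 shared 4.15% with other genes and Akr1c14 7.23%, so some of their reads may have been split with a near copy.

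The levels of Akr1c18 were widest in castrated ASC2, where the lowest library had 292 CPM, the median was 521 CPM and the highest, K1, had 4346 CPM (952 ± 1376 CPM, n = 8). Control male ASC2 had 107, 193 and 457 CPM (222 ± 109 CPM, n = 8), control female ASC2 243, 500 and 2529 CPM (740 ± 741 CPM, n = 8), and ovariectomized ASC2 70.8, 202 and 638 CPM (245 ± 190 CPM, n = 8). Castrated and control male ASC2 overlapped. In ASC1 control males had 120, 148 and 298 CPM (168 ± 60.7 CPM, n = 7), castrated males 25.8, 42.5 and 153 CPM (62.9 ± 45.0 CPM, n = 8) and control females 13.1, 62.7 and 210 CPM (91.6 ± 73.4 CPM, n = 8). The 3 ovariectomized ASC1 libraries had 29.7, 0 and 43.3 CPM. Akr1c18 was thus higher in ASC2 than in ASC1 in castrated males (log2 fold change 3.92, SE 0.54, adjusted p = 4.87e-07), control females (2.95, SE 0.51, adjusted p = 4.52e-05) and ovariectomized females (3.28, SE 0.91, adjusted p = 0.00332). In control males the difference was 0.40 (SE 0.50, adjusted p = 0.66). The difference without the Tcf21 libraries was 3.20 in castrated males (adjusted p = 0.0547), 2.15 in control females (adjusted p = 0.164) and 3.98 in ovariectomized females (adjusted p = 0.000294). Without the libraries against their sex label it was 0.86 in control females (adjusted p = 0.792) and 3.29 in ovariectomized females (adjusted p = 0.00632).

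Castration raised Akr1c18 in ASC2 by 2.10 on the log2 scale (SE 0.49, adjusted p = 0.00404). Without replicate K1, which also had the highest Dpp4 of castrated ASC2 (215 CPM), the difference was 1.10 and the edgeR call was lost (adjusted p = 0.102). The exact permutation test of log2(CPM + 1), with K1 in place, gave an adjusted p of 0.00808. The difference was 2.41 without the Tcf21 libraries (adjusted p = 0.000639), 1.89 without the libraries against their sex label (adjusted p = 0.076) and 2.22 without both kinds (adjusted p = 0.0185). In ASC1 castration gave -1.43 (SE 0.52, unadjusted p = 0.00808, adjusted p = 0.153 over all genes tested by edgeR). The exact permutation test of these libraries gave p = 0.00233, and an adjusted p of 0.0135 over only 52 tests. The castration effects in ASC2 and ASC1 differed by 3.53 (SE 0.71, adjusted p = 0.00172), and by 2.53 without K1 (adjusted p = 0.0113). Without the Tcf21 libraries this was 3.01 (unadjusted p = 0.002, adjusted p = 0.748), with 0 of all genes called by edgeR.

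Control males were below control females in Akr1c18 in ASC2 by -1.73 (SE 0.48, adjusted p = 0.0188), and by -2.03 without the Tcf21 libraries (adjusted p = 0.00504). The exact permutation test gave an adjusted p of 0.0111 with all libraries. Without the highest female library, E3, which also had the highest Dpp4 of all ASC2 (489 CPM) and carried Y-linked transcripts, the difference was -1.16 (adjusted p = 0.131). Without the libraries against their sex label, which left 2 control female libraries, both with Tcf21, it was -0.10. Ovariectomy gave -1.61 in ASC2 (SE 0.49, unadjusted p = 0.00164, adjusted p = 0.0627 by edgeR). The exact permutation test gave p = 0.00979 there, and an adjusted p of 0.0463 over only 52 tests. The difference was -1.19 without the Tcf21 libraries (adjusted p = 0.422) and -0.18 without the libraries against their sex label. In ASC1 ovariectomy gave -1.94 (SE 0.88, adjusted p = 0.0799). This came past the threshold at -3.02 without the Tcf21 libraries (adjusted p = 0.00919), -2.60 without the libraries against their sex label (adjusted p = 0.0494) and -3.07 without both kinds (adjusted p = 0.0107), with 2, 3 and 2 of the 8 control female libraries left. With all libraries the exact permutation test gave an adjusted p of 0.149. In ASC1 ovariectomized females were below control males by -2.76 (SE 0.90, adjusted p = 0.0128), by -2.95 without the Tcf21 libraries (adjusted p = 0.00485) and by -2.44 without the libraries against their sex label (adjusted p = 0.0656).

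Hsd11b1, which regenerates corticosterone from its inactive keto form, was higher in ASC1 than in ASC2 of both controls. In ASC1 control males had 71.5, 124 and 364 CPM (lowest, median and highest library, 179 ± 123 CPM, n = 7), control females 26.8, 343 and 467 CPM (288 ± 172 CPM, n = 8) and castrated males 47.2, 266 and 331 CPM (226 ± 106 CPM, n = 8), and the 3 ovariectomized libraries had 179, 247 and 297 CPM. In ASC2 the values were 12.6, 46.1 and 62.3 CPM in control males, 38.1, 61.8 and 157 CPM in control females, 30.5, 41.7 and 225 CPM in castrated males and 0, 95.3 and 193 CPM in ovariectomized females. Within groups the high values were those of the Tcf21 libraries. In castrated ASC2 the 2 Tcf21 libraries had 209 and 225 CPM and the other 6 had 30.5 to 53.2 CPM, in ovariectomized ASC2 4 had 160 to 193 CPM and the other 4 had 0 to 30.9 CPM, and in control male ASC1 3 had 228 to 364 CPM and the other 4 had 71.5 to 124 CPM.

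ASC2 were below ASC1 in Hsd11b1 by -2.09 in control males (SE 0.54, adjusted p = 0.0065) and by -1.79 in control females (SE 0.51, adjusted p = 0.0203). With the Tcf21 libraries left out the values were -1.03 in control males (adjusted p = 0.051) and 0.80 in control females, the opposite direction and not past the threshold. Without the libraries against their sex label they were -2.52 in control males (adjusted p = 0.037) and 0.78 in control females (adjusted p = 0.836). Ovariectomy gave -0.26 in ASC1 (SE 0.69, adjusted p = 0.799) and 0.31 in ASC2 (SE 0.51, adjusted p = 0.884) with all libraries. Without the Tcf21 libraries it was 2.80 in ASC1 (SE 0.53, adjusted p = 0.00012) and -1.76 in ASC2 (SE 0.43, adjusted p = 0.0285), with 2 control female libraries left in ASC1. Without the libraries against their sex label it was 1.46 in ASC1 (SE 0.88, adjusted p = 0.225) and -0.55 in ASC2 (SE 0.75), neither past the threshold. Castration gave 0.33 in ASC1 (95% interval -0.68 to 1.34, adjusted p = 0.86) and 1.03 in ASC2 (-0.01 to 2.06, adjusted p = 0.247).

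Cyp1b1, a cytochrome P450 that hydroxylates estradiol, was higher in ASC1 than in ASC2 of control females, control males and ovariectomized females. Its level in ASC1 was 58.9, 549 and 703 CPM in control females (lowest, median and highest, 428 ± 270 CPM, n = 8), 64.5, 93.3 and 304.5 CPM in control males (167 ± 115 CPM, n = 7) and 74.5, 90.1 and 106 CPM in castrated males (90.5 ± 11.4 CPM, n = 8). The 3 ovariectomized ASC1 libraries had 118, 266 and 353 CPM. In ASC2 it was 67.7 ± 19.5 CPM in control females, 57.7 ± 32.1 CPM in control males, 61.1 ± 30.9 CPM in ovariectomized females and 131 ± 102 CPM in castrated males (n = 8 each). In control female ASC1 the 6 Tcf21 libraries had 230 to 703 CPM and the other 2 had 58.9 and 60.1 CPM. The 6 Tcf21 libraries of castrated ASC1, at 74.5 to 106 CPM, lay around the other 2, at 84.3 and 96.9 CPM.

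ASC2 were below ASC1 in Cyp1b1 in control females (-2.66, SE 0.41, adjusted p = 3.22e-06), control males (-1.55, SE 0.41, adjusted p = 0.00796) and ovariectomized females (-1.97, SE 0.51, adjusted p = 0.00181). Without the Tcf21 libraries these values were 0.09 and -0.39 in the controls, neither past the threshold, and -2.91 in ovariectomized females (adjusted p = 5.51e-07). Without the libraries against their sex label they were -0.32 in control females (adjusted p = 0.925) and -1.95 in control males (adjusted p = 0.0188). In ovariectomized females the value was then -1.97 (adjusted p = 0.00109). Without replicate L4 of ovariectomized ASC1 the value in ovariectomized females was -1.56 with all other libraries in place (adjusted p = 0.0664). Castrated ASC1 were below control female ASC1 by -2.24 (SE 0.40, adjusted p = 0.000683), and the difference was 0.61 without the Tcf21 libraries. Castration gave 1.22 in ASC2 (SE 0.40, adjusted p = 0.0502), where the 2 Tcf21 libraries had 280 and 309 CPM and the other 6 had 58.04 to 102 CPM, and 0.45 without those 2. It gave -0.89 in ASC1 (SE 0.41, adjusted p = 0.315). The 2 castration effects differed by 2.11 (SE 0.57, adjusted p = 0.0289), and by 0.18 without the Tcf21 libraries.

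**Figure D3:**
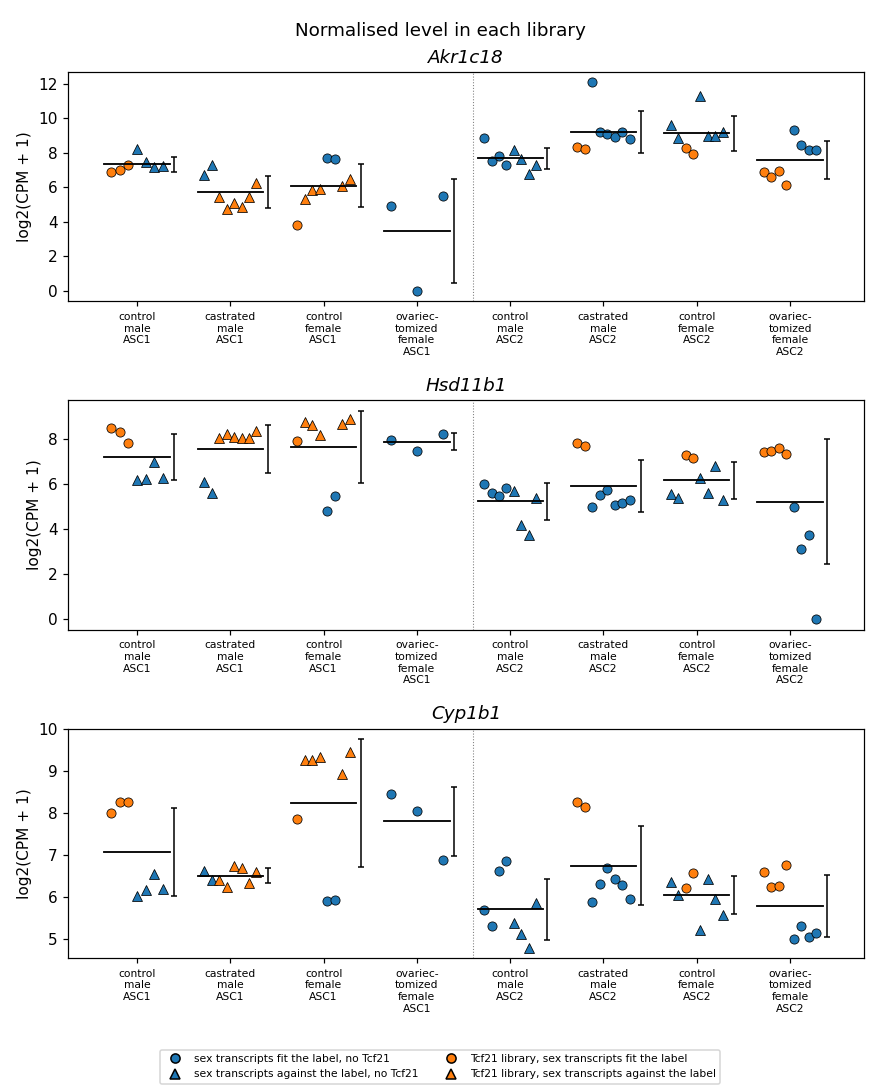
Level of Akr1c18, Hsd11b1 and Cyp1b1 in each library as log2(CPM + 1), by group, with ASC1 left and ASC2 right of the dotted line, the mean as a bar and the SD beside it. The orange Tcf21 libraries lie above the other libraries of their group for Hsd11b1 in 6 groups, and replicate K1 of castrated ASC2 stands alone for Akr1c18 at 4346 CPM.

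**Figure D4:**
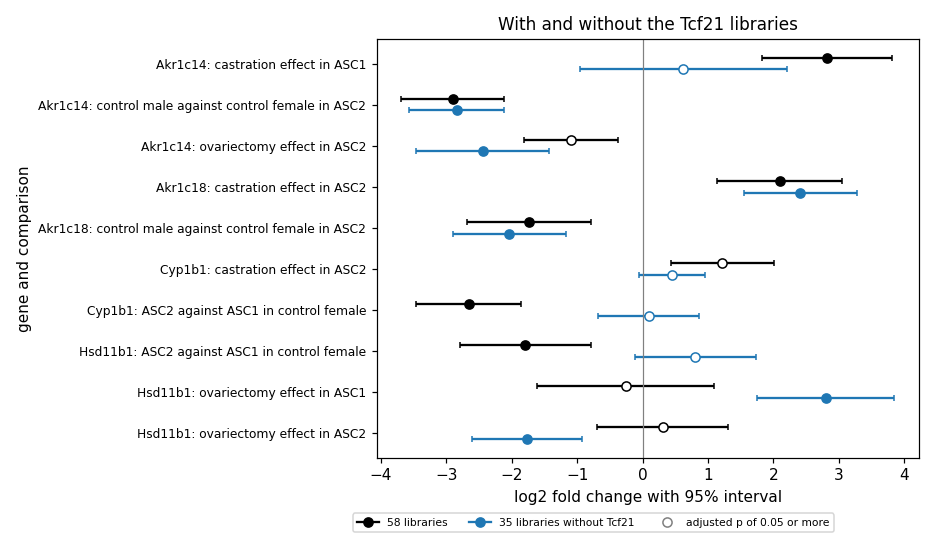
Log2 fold change with its 95% interval for 10 pairs of gene and comparison, in all 58 libraries (black) and in the 35 libraries without Tcf21 (blue), with open circles for an adjusted p of 0.05 or more. Akr1c14 between control males and females in ASC2 is at -2.90 and -2.84, while Hsd11b1 after ovariectomy in ASC1 is at -0.26 and 2.80.

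The remaining members were at similar levels in most groups or rested on few reads per library. Hsd17b4, the peroxisomal multifunctional enzyme that oxidizes estradiol and shortens fatty acids, had group means between 67.2 and 72.1 CPM in 7 groups. In ovariectomized ASC1 the 3 libraries had 231, 87.2 and 74.3 CPM. Ovariectomy in ASC1 gave 0.97 (SE 0.24, adjusted p = 0.00122), which was 0.17 without the first of these, L4 (adjusted p = 0.725). The calls against control male ASC1 (0.98) and of ASC2 against ASC1 in ovariectomized females (-0.98) were likewise lost without L4, as was the difference of the ovariectomy effects between ASC2 and ASC1 (-0.97, and -0.18 without L4, adjusted p = 0.731). Castration gave 0.02 in ASC1 (95% interval -0.35 to 0.40) and -0.08 in ASC2 (-0.44 to 0.27). Hsd17b12, a microsomal enzyme of fatty acid elongation that also reduces estrone, had means of 92.4 to 133 CPM and passed the threshold in none of the 14 comparisons. Its largest value was -0.52 after ovariectomy in ASC1 (SE 0.23, adjusted p = 0.0669), and with library size only as the scaling this was -0.84 (adjusted p = 0.00275). The 5-alpha-reductase Srd5a1 was at 17.7 ± 11.1 CPM in control male ASC2 and at means of 4.40 to 8.84 CPM in the other 7 groups. It gave -1.17 after castration in ASC2 (SE 0.45, adjusted p = 0.0995) and 1.15 between control males and control females in ASC2 (SE 0.45, adjusted p = 0.11). For the latter the exact permutation test gave p = 0.00295, and an adjusted p of 0.0154 over only 52 tests. Of its 31-base exon words 15.7% were shared with other genes. Srd5a3, which is needed to make dolichol for protein glycosylation, was at means of 7.18 to 14.9 CPM and passed the threshold in no comparison (edgeR). Cyp19a1, the aromatase that forms estrogens from androgens, had 3 reads in all 58 libraries, 1 in each of replicates N1, N2 and N3, and was not tested.

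Other genes of steroid metabolism and response were taken from a list of 68 (sulfation, dehydrogenases, reductases and P450, glucuronidation, receptors), of which 33 were tested. After castration 2 rose and 1 fell in ASC1, where 2.36% of all genes were called, and 2 rose and 1 fell in ASC2 (6.96%). After ovariectomy 8 rose and 5 fell in ASC1, against a background of 34.8% of all genes, and 0 rose and 3 fell in ASC2 (2.09%). Between the controls 0 differed in ASC1 (0.289%), and 1 was higher and 2 were lower in males in ASC2 (6.5%). The genes named here had their smallest adjusted p in ovariectomized ASC1, the group with the high fibroblast marker sum. Esr1, the estrogen receptor alpha, was at 144 ± 42.9 CPM there (n = 3) against 11.2 ± 8.97 CPM in control female ASC1 (n = 8), a difference of 3.91 (SE 0.47, adjusted p = 1.45e-09). Sult1a1, a phenol sulfotransferase, was at 81.1 ± 15.1 against 3.66 ± 3.62 CPM (4.19, adjusted p = 6.01e-07). Hsd3b7 rose by 1.72 (adjusted p = 1.2e-05) and Hsd17b11 by 1.52 (adjusted p = 7.31e-05), while Ugt1a7c, one of a cluster of glucuronosyltransferases with shared exons, was lower by -4.33 (adjusted p = 2.19e-05). Without the Tcf21 libraries and those against their sex label, which left 2 control female ASC1 libraries, the values were 3.08 for Esr1, 4.16 for Sult1a1, 2.67 for Hsd3b7, 2.74 for Hsd17b11 and -2.68 for Ugt1a7c.

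Among 10533 genes with a mean of at least 5 CPM, the levels most like those of Sult1e1 over the 58 libraries of 8 groups were those of Tdo2, C7 and Vps35l, with Pearson's r of log2(CPM + 1) of 0.86, 0.84 and 0.62. Over the 35 libraries without Tcf21 r was 0.87, 0.83 and 0.80. Tdo2, the tryptophan dioxygenase, was at 26.1 ± 8.4 CPM in ASC2 and 13.1 ± 5.0 CPM in ASC1 of control males, and C7, a complement component, at 533 ± 480 and 196 ± 78.2 CPM. Unlike Sult1e1, both had reads in ovariectomized ASC1, Tdo2 in 2 of 3 libraries (0 to 18.6 CPM) and C7 in all 3 (50.3 to 285 CPM). For Akr1c14 the closest genes were Gja1, Fgl2 and Prss23, with r of 0.65, 0.65 and 0.62, and with 0.19, 0.33 and 0.58 without the Tcf21 libraries. These values describe libraries that share group, depth and sorting, and no test was made of them.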

How the data were processed

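RNA of sorted ASC1 and ASC2 was measured in 58 Smart-seq3 libraries. The authors aligned reads with STAR 2.7.10a for quality control, quantified them with Salmon 1.9.0 on GRCm39 transcripts, removed libraries with few detected genes and deposited gene-level estimated counts (expected counts), not normalized. Of the counts above 0, 15.0% were not whole, and all were rounded. Groups came from the sample titles. The study's methods give 8 mice per group, so libraries of a group are taken as separate mice. Some libraries held both Xist and Y-linked transcripts, so this separation is not established, and every p rests on it. The sources used here do not say whether an ASC1 and an ASC2 library of the same letter came from the same mouse.

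Differences were tested with edgeR 4.0.16 in R 4.3.3 (TMM scaling, quasi-likelihood test, 8 group coefficients, Benjamini-Hochberg adjustment, threshold 0.05) on the 12464 genes that had 5 reads or more in over 3 libraries. SE and 95% intervals are on the log2 scale. The exact permutation test of mean log2(CPM + 1), two-sided, used scipy 1.17.1. Its p were adjusted over 52 tests of members and those of edgeR over 12464 genes, so the adjusted p cannot be compared directly. Symbols were matched by identifier for 12371 tested genes. Alternatives were other scalings, no count filter, only the groups compared, DESeq2 1.42.0, limma voom 3.58.1, a block by replicate letter, and libraries left out. The script was tested on simulated data. No 2 libraries of a group held the same counts.

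Named were the 10 members, the 6 other steroid genes with the smallest adjusted p for castration, ovariectomy or control sex (1 of them is not reported here), and the 3 genes most like Sult1e1 and Akr1c14 each. Members and lists were chosen with earlier results of these data known. A library went against its sex label where Xist in a library labelled male, or the Y-linked genes in one labelled female, reached 10 CPM, and counted as a Tcf21 library from 5 CPM of Tcf21. Floors of counts cover counting error only. SE and intervals are those of the edgeR fit and also take in the variation between libraries.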

Additional observations from a re-analysis of the deposited data

Results flagged for a closer look

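In 6 of 57 sets (1 member in 1 group of libraries) tested with Dixon's ratio on CPM, 1 library lay far above the others. The limits used flag about 1 in 20 sets of normally distributed values. Whether CPM are so distributed was not tested, and the sets share libraries, so 6 of 57 cannot be set against that rate. Replicate D2 of control male ASC1 had 133 CPM of Sult1e1 against 22.7 to 68.8 CPM in the other 6. Replicate E3 of control female ASC2 had 472 CPM of Akr1c14 against 62.9 to 193 CPM and 2529 CPM of Akr1c18 against 243 to 776 CPM in the other 7. Replicate K1 of castrated ASC2 had 4346 CPM of Akr1c18 against 292 to 600.1 CPM. Replicate E2 of control male ASC1 had 298 CPM of Akr1c18 against 120 to 179 CPM. Replicate F4 of control female ASC1 had 196 CPM of Hsd17b12 against 112 to 142 CPM.

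The castration effect differed between ASC2 and ASC1, by the interaction term in edgeR, for Akr1c18 (log2 difference 3.53), Cyp1b1 (2.11) and Akr1c14 (-3.02). The ovariectomy effect differed between ASC2 and ASC1 for Hsd17b4 (-0.97), and this was -0.18 without replicate L4 of ovariectomized ASC1 (adjusted p = 0.731) and -1.15 without the libraries against their sex label (adjusted p = 0.0912). Of all genes tested 2.41% were called for the first difference and 34.8% for the second. For control males against control females edgeR called 0 members as different between ASC2 and ASC1, with 0.128% of all genes called. There 3 members were among the 1370 of 12464 genes with an unadjusted p below 0.05 in edgeR, and DESeq2 called 2 members.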

How the results depend on the processing

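In all, 1699 values of single members were recomputed under an alternative. Of these, 1595 stayed on their side of the threshold, 54 came past it, 38 lost it and 12 reversed. The 1595 include 175 values without a call that changed sign. The cause was not tested. The counts of members past the threshold moved by over 1.5 times in 37 of 183 cases, as follows.

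Without the Tcf21 libraries the count was 0 for castration in ASC1, 4 for ovariectomy in ASC1 and 2 in ASC2, 0 for castrated males against control females and 5 for ovariectomized females against control males in ASC1, 1 for the latter in ASC2, 0 for ASC2 against ASC1 in control males and in castrated males and 1 in control females, 0 for the difference of the castration effects and 4 for that of the ovariectomy effects. Of all genes 26.8% were then called for ovariectomy in ASC1 and 0.907% in ASC2, 31.4% and 6.74% for ovariectomized females against control males in ASC1 and ASC2, 1.95% for ASC2 against ASC1 in control females and 26.2% for the difference of the ovariectomy effects. For ASC2 against ASC1 it was 4.56% in control males and 0.586% in castrated males. At an unadjusted p below 0.05 these fits had 4 members (2301 of all genes) and 1 member (1017 genes). The fit of castration in ASC1 had 1 member (284 genes). That of castrated males against control females in ASC1 had 0 (588 genes), and that of the difference of the castration effects 1 (779 genes). Without the libraries against their sex label the count was 2 for ovariectomy in ASC1 and 1 for castration in ASC2. It was 1 for ASC2 against ASC1 in control females and 0 for the difference of the ovariectomy effects. At an unadjusted p below 0.05 these fits had 4, 2, 1 and 1 members, and 4756, 2642, 1370 and 4348 of all genes. Without both kinds the count was 4 for ovariectomy in ASC1, with 5 members and 4397 of all genes at an unadjusted p below 0.05. For ovariectomy in ASC1 DESeq2 gave 2, library size only 3, no count filter 2 and only the groups compared 2. For ASC2 against ASC1 in castrated males these gave 2, 2, 3 and 3. For ovariectomy in ASC2 limma voom gave 1 and no count filter 2, for control sex in ASC1 no count filter gave 2, for its difference between ASC2 and ASC1 DESeq2 and no count filter gave 2, and for that of the ovariectomy effects DESeq2 gave 2. With single libraries left out (L4, N4, P4, D2, E2, F4, K1 or E3) the range was 0 to 2 for ovariectomy in ASC1, 1 to 2 for control sex in ASC1, 1 to 3 for ovariectomized females against control males in ASC1, 1 to 4 for ASC2 against ASC1 in ovariectomized females and 0 to 1 for the difference of the ovariectomy effects, the lowest without L4 in all but control sex, where F4 gave the highest.

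Reversed values without the Tcf21 libraries were those of Hsd11b1 for ASC2 against ASC1 in control females (0.80), ovariectomy in ASC1 (2.80) and ASC2 (-1.76) and their difference (-4.56), and those of Cyp1b1 for the same comparison of ASC2 with ASC1 (0.0905), ovariectomy in ASC1 (2.09), its difference between ASC2 and ASC1 (-2.998) and castrated males against control females in ASC1 (0.61). Without the libraries against their sex label Hsd11b1 was at 0.78 for ASC2 against ASC1 in control females. Without both kinds, ovariectomy in ASC1 was at 2.75 for Hsd11b1 and 2.05 for Cyp1b1, and Hsd11b1 at -1.56 for ovariectomized females against control males in ASC2.

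Pairing of ASC1 with ASC2 by replicate letter was not established. The deviations of same-letter libraries correlated above 0.1 in 2 of 7 pairs of control males, 3 of 8 of control females, 0 of 8 of castrated males and 0 of 3 of ovariectomized females. The best match was the library of the same letter for 5, 3, 0 and 0 of them. Between control males and control females, 5 of 7 same-letter pairs were above 0.1 in ASC1 (median r 0.155, best match 3) and 3 of 8 in ASC2 (best match 2). With the replicate block 1 member was called for the difference of the control sex effects, against 0 without it, and 3 calls of ASC2 against ASC1 changed (Srd5a1 in control males 1.25 and Hsd11b1 in ovariectomized females -2.50 came past the threshold, Hsd17b4 in ovariectomized females at -0.73 lost it). Levels of Srd5a1, Srd5a3 and Cyp19a1 rest on few reads per library.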
